A study of Mus musculus with 10 samples.

Results

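The positions described here are CG sites of the autosomes at which the deposited 5-carboxylcytosine (5caC) table had a value for Tdg cells in serum-2i and for none of the other 3 groups, called lone sites below. There were 448701 of them among 922427 positions in the whole table. They made up 65.6% of the 683575 autosomal sites of serum-2i Tdg cells (exact 95% binomial interval 65.5 to 65.8). The choice rests on the table itself: a site is lone because the other groups have no row there. The lone share and the coverage of the lone sites are therefore descriptions, while their place in the genome and their sequence were not used to choose them.

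The table covered mouse embryonic stem cells, grown feeder-free on gelatin in serum medium with the cytokine LIF. Wild-type (wt) and Tdg cells were each grown in serum and in serum-2i, that is, with CHIR99021 at 3 µM, which blocks the kinase GSK3, and PD0325901 at 1 µM, which blocks the kinase MEK. Tdg is the gene of thymine DNA glycosylase; the labels give its name without saying how it was altered, and they do not name the cell line. A control of serum-grown cells with a triple Tet knockout was prepared alongside; the labels say that it was used in making the table but not how, and it is not analysed here. Nothing in the labels states the rule by which a site was listed. Each group had 2 technical replicates given as 1 mean; the spread between replicates is therefore unknown here, and no test was made.

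5caC is the last step in the oxidation of 5-methylcytosine by the TET dioxygenases, and thymine DNA glycosylase cuts it out so that base excision repair can restore an unmodified cytosine. Cells without that activity keep 5caC where the enzymes have worked. CG-dense promoters, the CpG islands, are mostly unmethylated in embryonic stem cells, while gene bodies and intergenic DNA carry most of the methylated CGs, and serum-2i is known to lower methylation across the genome. Per the labels' protocols, 5-hydroxymethylcytosine and unmodified CGs were first blocked. The engineered methyltransferase eM.SssI then took the carboxyl group off 5caC and attached an azide tag, through which the DNA was enriched, primed and sequenced. The assay reads DNA, so the cell type could not be set against marker genes.

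The listed positions could be tied to sequence. Within 300-base windows around annotated starts (250 bases before and 50 after; RefSeq, GRCm38.p6, the assembly that mm10 also names), all 13800 listed positions fell on the C of a CG on the plus strand once they were read as counted from 0. Positions below are therefore printed counted from 1. No listed site lay 1 base from a site of another group, so lone sites were not opposite-strand copies of shared CGs. In the windows, 3186 of 349578 CGs were lone sites. The windows with the most lone sites are shown first, because they show how closely lone CGs can stand and how they lie beside shared ones. In the next 3 sequences, written 5′ to 3′ along the gene, capitals mark the lone CGs, and in the last they mark the CGs listed in serum Tdg cells.
Rpl39l: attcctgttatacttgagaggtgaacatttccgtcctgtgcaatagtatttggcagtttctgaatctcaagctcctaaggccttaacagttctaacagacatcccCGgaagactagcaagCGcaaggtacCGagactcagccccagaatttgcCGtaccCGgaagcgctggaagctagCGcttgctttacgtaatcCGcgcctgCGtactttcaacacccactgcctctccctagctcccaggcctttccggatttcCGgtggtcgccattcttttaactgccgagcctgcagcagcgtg
Elf5: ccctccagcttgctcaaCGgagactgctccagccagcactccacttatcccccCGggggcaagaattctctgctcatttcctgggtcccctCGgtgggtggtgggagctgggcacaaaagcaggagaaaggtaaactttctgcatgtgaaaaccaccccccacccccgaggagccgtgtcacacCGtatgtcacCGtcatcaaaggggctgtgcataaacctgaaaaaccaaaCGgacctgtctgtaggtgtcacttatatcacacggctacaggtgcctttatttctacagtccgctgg
4930594O21Rik: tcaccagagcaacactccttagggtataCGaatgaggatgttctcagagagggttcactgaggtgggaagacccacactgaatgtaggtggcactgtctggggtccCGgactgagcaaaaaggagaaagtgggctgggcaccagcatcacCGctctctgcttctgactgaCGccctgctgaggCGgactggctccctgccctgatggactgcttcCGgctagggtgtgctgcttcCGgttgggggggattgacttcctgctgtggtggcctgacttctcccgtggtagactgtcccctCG
Acot11: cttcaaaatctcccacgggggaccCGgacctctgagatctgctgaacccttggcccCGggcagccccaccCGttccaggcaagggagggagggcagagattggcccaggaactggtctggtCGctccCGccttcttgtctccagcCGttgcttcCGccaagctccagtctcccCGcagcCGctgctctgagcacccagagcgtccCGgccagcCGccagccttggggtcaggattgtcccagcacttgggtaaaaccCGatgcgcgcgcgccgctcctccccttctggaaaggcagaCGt

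The Rpl39l window (chr16:10169978-10170277, plus strand) precedes a ribosomal protein gene expressed mainly in the testis. Of its 17 CGs, 9 were lone sites, with coverage from 6 to 21.5. The pair of CGs farthest downstream of the start, at 32 and 46 bases, was also listed in serum Tdg cells and had the highest coverage of the window, 72.5 and 65.5 in serum-2i Tdg cells against 56 and 18 in serum Tdg cells. The lone sites of this window thus had lower coverage than the shared CGs beside them.

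The Elf5 window (chr2:103423818-103424117, plus strand) precedes the gene of a trophoblast transcription factor whose promoter is known to be methylated in embryonic stem cells. It held 10 CGs, of which 6 were lone with coverage of 20.5, 11, 15, 24, 23.5 and 18 in order along the gene. A further CG, 15 bases past the start, had 24 in serum-2i Tdg cells and 20 in serum-2i wt cells. No CG of this window was listed in serum cells of either genotype.

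In the window of the lncRNA gene 4930594O21Rik (chr3:37613663-37613962, plus strand), 8 of 9 CGs were lone, with coverage from 13 to 48.5, and the remaining CG was shared with serum Tdg cells (32.5 against 44). The 6 windows with the most lone sites, ties broken by summed coverage, also included 3 of predicted lncRNA genes, Gm52555 with 10 lone CGs of 15, Gm34375 with 6 of 15 and Gm30283 with 6 of 15. The longest stretch that occurs more than once in the Gm52555 window is 54 bases, so its short reads could be placed at the wrong copy, which was not tested. The Acot11 window (chr4:106804958-106805257, minus strand), before the gene of an acyl-CoA thioesterase, is the contrast, picked after the values were seen as the window with the most serum Tdg sites and no lone one: of its 20 CGs, 13 were listed in serum Tdg cells, 2 of these also in another group, and none was a lone site of serum-2i Tdg cells.

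Lone sites were most frequent in windows with few CGs and rare in CG-dense ones. In windows with 6 to 9 CGs, 4.46% of the CGs were lone sites (1227 of 27490, interval 4.22 to 4.71), and 20.6% of these windows held a lone site. The share was 2.68% in windows with 1 to 2 CGs and 4.20% in those with 3 to 5. It was 1.86% in windows with 10 to 14 CGs, 0.371% with 15 to 19 and 0.0665% with 20 to 29. In windows with at least 30 CGs, 10 of 123231 CGs were lone sites, which is 0.00811% (0.00389 to 0.0149). CGs listed in serum Tdg cells followed the CG content less steeply: 9.07% of the CGs were listed in the class with 6 to 9, and 0.362% in the densest class. Shared sites of serum-2i Tdg cells fell steeply too, from 4.47% with 6 to 9 CGs to 0.182% with 20 to 29 and 0.0105% in the densest class. Rarity in the densest windows was thus not particular to the lone sites. Of the serum-2i Tdg sites themselves, 60.6% were lone in the windows with the fewest CGs and 26.7% in those with 20 to 29. Windows with 6 to 9 CGs had almost equal numbers, 1227 lone and 1228 shared. The densest class had 43.5%, resting on 10 lone and 13 shared CGs.

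**Figure D1:**
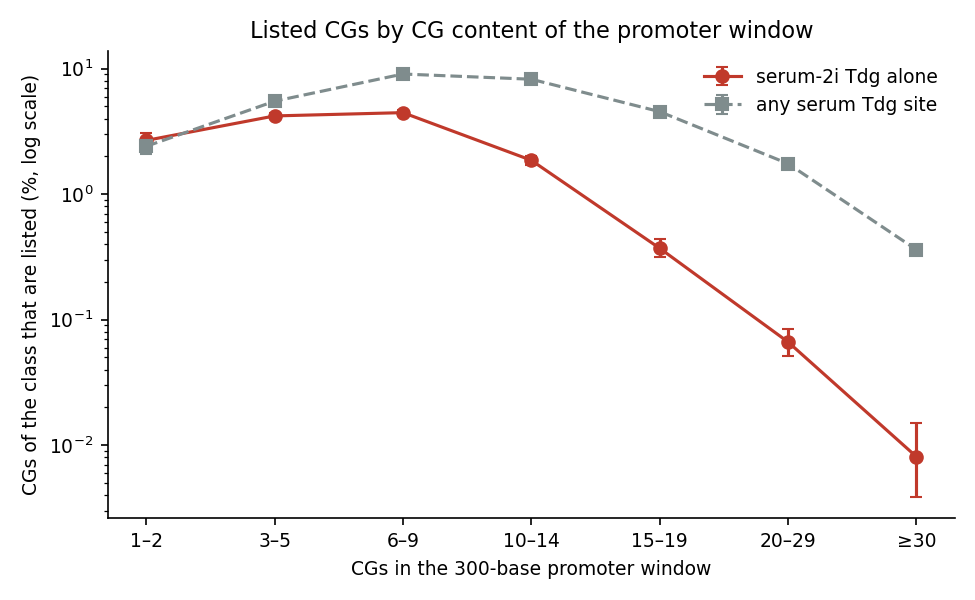
The percentage of promoter CGs listed (log scale) is plotted against the number of CGs in the 300-base window, for lone sites of serum-2i Tdg cells and for all sites of serum Tdg cells, with exact 95% intervals as bars. The lone sites run from 4.46% at 6 to 9 CGs to 0.00811% at 30 or more, and the serum Tdg sites from 9.07% to 0.362%.

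The bases beside the CG also differed between lone sites and all CGs of the windows. Because both strands carry the CG, GCG and CGC are the same motif read on opposite strands, and they were counted together; motifs on the left and right of a CG can occur at the same site. In windows with 3 to 9 CGs, 23.8% of the 2183 lone sites had GCG or CGC (22.0 to 25.7), against 42.9% of all 50226 CGs there. The share was 20.7% for shared sites of serum-2i Tdg cells and 35.1% for sites of serum Tdg cells alone. CCG or CGG stood at 64.9% of the lone sites and 52.7% of all CGs, with 71.1% for shared sites and 69.4% for sites of serum Tdg cells alone. ACG or CGT stood at 50.7% of the lone sites and 41.7% of all CGs, with 42.7% and 36.5% for those other sets. TCG or CGA stood at 32.8% of the lone sites and 36.6% of all CGs, with 34.2% and 31.7% for the others. Listed sites of every set had fewer GCG or CGC than the CGs as a whole, so this is no property of the lone sites by itself, and whether the labelling, priming or mapping prefers some neighbours was not tested.

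Coverage at lone sites was low. The lowest value was 6, the minimum of the group, the median 12, the quartiles 9 and 17.5, and the highest 165. Sites of serum-2i Tdg cells that another group also listed had a median of 18 with quartiles 11.5 and 29.5. The lone share fell from 84.3% at a coverage from 6 to under 7, through 72.2% at 10 to under 15 and 40.6% at 30 to under 50, to 7.64% from 100 upward (143 of 1872 sites). Lone sites held 54.6% of the summed coverage of the group against 65.6% of its sites. Sites listed in serum Tdg cells alone, 170656 in number, had the same median of 12 with quartiles 9 and 18. A missing row is not a value of 0: another group was listed only from a mean coverage of 6 (serum Tdg), 4 (serum-2i wt) or 3 (serum wt). The summed listed coverage was 12348368 for serum-2i Tdg and 7486660 for serum Tdg cells, and among wt cells 890158.5 with the inhibitors and 43172 without. These sums cover listed sites only and are not read depths, which are unknown here. How far differences in read depth contribute to the number of lone sites was not tested.

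**Figure D2:**
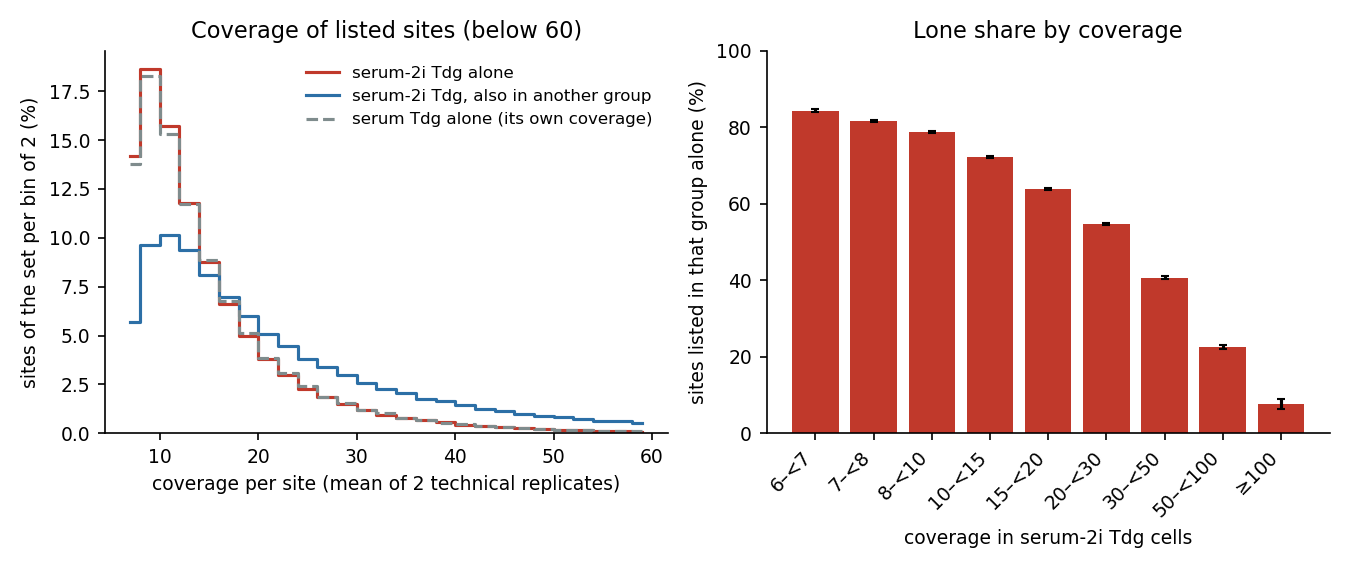
Left, the distribution of coverage per site (percent of the set in bins of 2, values under 60) for lone sites, for serum-2i Tdg sites listed in another group and for sites of serum Tdg cells alone. Right, the percentage of serum-2i Tdg sites that are lone in each class of coverage, with exact 95% intervals; it falls from 84.3% to 7.64%.

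The shared sites were mostly shared with the other Tdg group. Of the serum-2i Tdg sites, 177434 (26.0%) were also listed in serum Tdg cells and nowhere else, 37397 (5.47%) in serum-2i wt cells and nowhere else, and 16060 (2.35%) in both of these but not in serum wt cells. Their median coverage in serum-2i Tdg cells was 18, 14.5 and 29.5. At the edge of listing, 4234 of the 196610 sites shared with serum Tdg cells (2.15%) lay within 1 unit of that group's minimum. These edge sites had a median of 14.5 in serum-2i Tdg cells. For wt cells the edge held 8.13% of the sites shared with the serum-2i group (4410 of 54242) and 26.9% of those shared with the serum group (1072 of 3983).

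Lone sites lay farther from gene starts than the other sets. Starts were taken from the protein-coding windows of 18 autosomes; chromosome 18 is not used here for starts. The median distance to the nearest start was 40911 bases for lone sites, 24843 for shared sites and 14126 for sites of serum Tdg cells alone. Within 500 bases of a start lay 0.888% of the lone sites, 2.03% of the shared sites and 7.53% of those of serum Tdg cells alone. More than 50 kb away lay 44.6%, 31.1% and 21.9%. The lone share of serum-2i Tdg sites was lowest in the 500 bases before a start, at 43.9%, and was 76.5% beyond 100 kb upstream and 75.8% beyond 100 kb downstream.

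**Figure D3:**
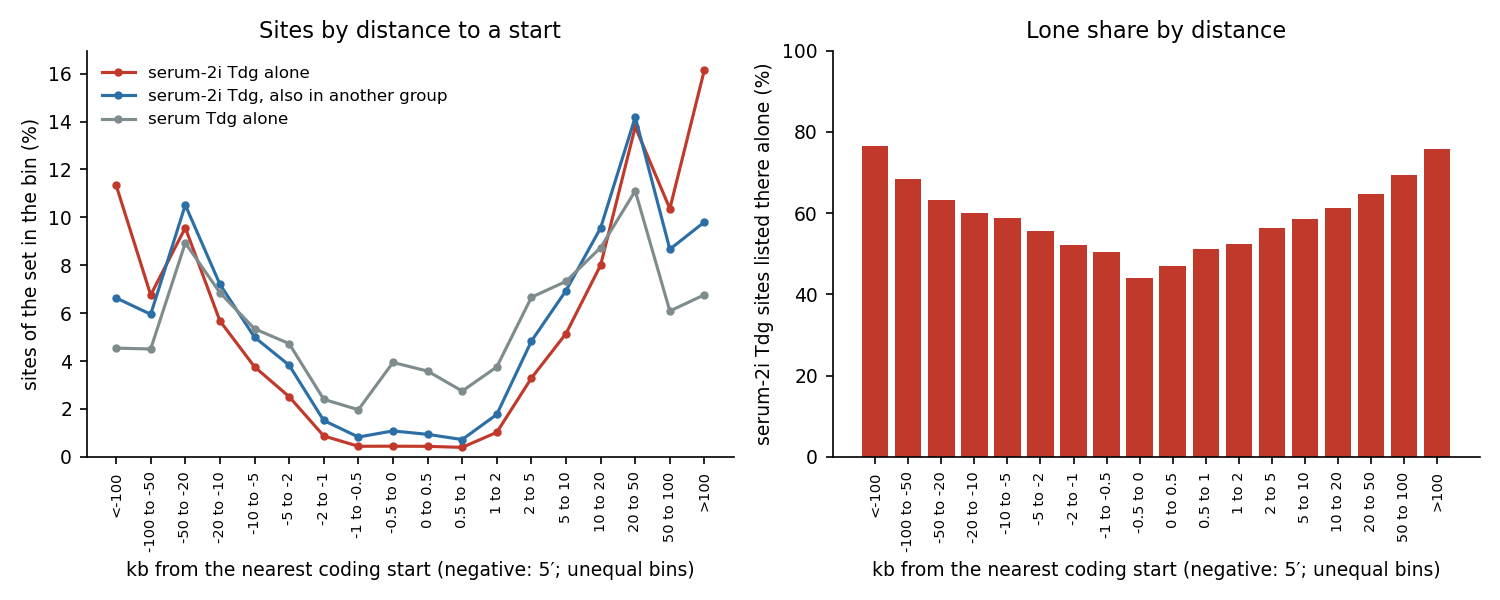
Left, the percentage of each set's sites in bins of distance to the nearest protein-coding start (kb, unequal bins, negative is 5′). Right, the percentage of serum-2i Tdg sites that are lone in each bin, from 43.9% just before the start to 76.5% and 75.8% in the outermost bins.

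The same order held by gene span. Within 1 kb of an end of a protein-coding span, which covers 3.11% of the autosomal length, lay 4.32% of the lone sites (interval 4.26 to 4.38), 7.47% of the shared sites (7.37 to 7.58) and 17.4% of the sites of serum Tdg cells alone. Inside protein-coding spans, 41.0% of the length, lay 55.6%, 58.5% and 60.4%. Spans over 200 kb, 16.6% of the length, held 14.7% of the lone sites, 9.44% of the shared ones and 6.46% of those of serum Tdg cells alone. Spans under 10 kb, 1.28% of the length, held 1.94%, 4.06% and 8.91%. Outside every annotated span and over 50 kb from any span end lay 3.86% of the lone sites, 1.54% of the shared sites and 0.693% of the sites of serum Tdg cells alone. LncRNA spans outside coding genes held about the same share of each, 7.97%, 8.18% and 9.05%. These intervals cover counting error alone: reads were amplified, they carry no molecular identifiers, and neighbouring CGs can share them.

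The locations differed within classes of like coverage too. Among sites with a coverage under 10, 4.93% of the lone and 10.2% of the shared sites were within 1 kb of a coding span end. From 10 to under 30 the shares were 4.13% and 7.70%, and from 30 upward 3.11% and 5.22%. The share in coding spans over 200 kb was 14% of lone and 8.44% of shared sites under 10, 14.9% and 9.29% in the middle class and 16.8% and 10.4% from 30 upward.

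Genes of at least 30 kb were taken where the start windows gave 1 strand (5650 genes), so not all genes of that length and none of chromosome 18. Along these, lone sites were spread almost evenly. With the span cut into 10 equal bins, the first bin held 9.23% of them, the middle ones between 9.73% and 10.2%, and the last 11.8%. Shared sites had 11.8% in the first bin and 12.8% in the last. Sites of serum Tdg cells alone had 24.9% in the first bin and 11.4% in the last.

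**Figure D4:**
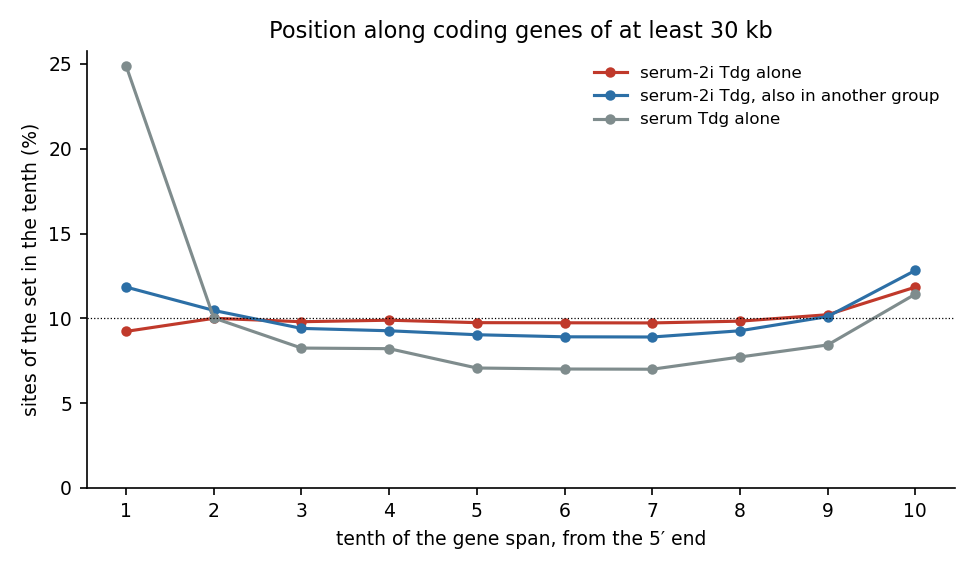
The percentage of each set's sites in 10 equal bins of the gene span from the 5′ end, for 5650 protein-coding genes of at least 30 kb. These are the genes whose strand was given by the start windows. The dotted line marks an even spread. Lone sites stay between 9.23% and 11.8%, and the sites of serum Tdg cells alone reach 24.9% in the first bin.

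Lone sites were less tightly packed than shared ones. The nearest other site of serum-2i Tdg cells lay at a median of 99 bases from a lone site and 60 bases from a shared site. Within 1 kb, 82.1% of the lone and 89.4% of the shared sites had such a neighbour. The nearest site of another group lay at a median of 657 bases from a lone site. It was within 100 bases for 22.6% of the lone sites and beyond 10 kb for 49451 of them, or 11%. For shared sites the share beyond 10 kb was 2.89%, and for sites of serum Tdg cells alone, measured to any other group, 0.815%. The last value is not like for like, since those other groups include the 683575 sites of serum-2i Tdg cells.

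Across the 19 autosomes the density of lone sites averaged 187 per Mb, against 97.8 for shared sites and 71.1 for sites of serum Tdg cells alone. It was highest on chromosome 11 (257 per Mb) and lowest on chromosome 3 (142 per Mb). Shared sites ranged more widely, from 61.7 per Mb on chromosome 3 to 174 on chromosome 11. The lone share was lowest on chromosome 11, at 59.6%, and highest on chromosome 13, at 73.1%. By 100 kb windows, lone sites reached 21324 of the 21744 windows with any listed autosomal site, and in 3946 windows every listed site was lone. A window with few sites meets the latter rule more easily, and no minimum number of sites was set for it. Among the 10207 windows with at least 20 serum-2i Tdg sites, the lone share had a median of 67.8%, with 40% and 90.3% at the 5th and 95th percentiles.

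The lone sites of highest coverage were scattered. The highest, 165, lay at chr16:24187320 in the span of the lncRNA gene Gm31814. Next came 159 at chr10:61576651 in Lrrc20, a leucine-rich repeat protein gene, 6140 bases from its end. A coverage of 152.5 was found at chr12:31262903, in the lncRNA gene Gm32899 and 2243 bases from an end of Lamb1, which encodes a laminin subunit. The site at chr8:47769738 (150) was in no span, the one at chr15:74925472 (146.5) in the pseudogene Gm6610, and the one at chr19:46833263 (145) in Cnnm2, a magnesium transport gene. All 6 were more than 1 kb from the nearest coding span end. No annotation of exons, introns or UTRs was used here, so places are given by gene span.

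Of 20665 autosomal protein-coding genes, 14993 (72.6%) held a lone site, with a median of 7 sites in those that did. The 10 genes with the most were all long. Tenm3, a synaptic adhesion gene of the teneurin family (chr8:48225665-49522824), had 454 lone sites among 568 of serum-2i Tdg cells, and it had 118 sites in the Tdg cells kept in serum, then 101 and 3 in wt cells with and without the inhibitors. Wwox, a tumour suppressor at a fragile site (chr8:114439635-115352712), had 423 of 534, with 92, 99 and 3 sites in the other groups in the same order. Slc39a11, a zinc transporter gene (chr11:113244851-113650200), had 421 of 580, with 145, 119 and 3. Msi2, a gene of an RNA-binding protein, had 416 of 643, and Auts2, a neurodevelopmental gene, 407 of 532. All of these had sites in the other groups too.

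Zfhx3, a zinc-finger homeobox gene, had 390 lone sites of 643 and the lowest lone share of the 10, 60.7%. The remaining genes had few sites in serum Tdg cells. Cdh13, an atypical cadherin gene, had 380 of 450 with 45 sites in serum Tdg cells, Magi1, a junction scaffold gene, 366 of 443 with 57, the receptor phosphatase gene Ptprg 350 of 422 with 59, and Arl15, a small GTPase gene, 336 of 406 with 61. Mean coverage of the lone sites in these 10 genes ran from 14.6 in Wwox to 17.2 in Slc39a11. Per kb, among genes with at least 20 serum-2i Tdg sites and a symbol that is not predicted, other genes led: Tmem14c, a mitochondrial membrane protein gene, had 4.42 lone sites per kb (28 of 34 sites), Pdp2, which encodes a pyruvate dehydrogenase phosphatase, 3.31 (25 of 29), the water and glycerol channel gene Aqp3 3.30 (18 of 25), the thrombin receptor gene F2r 3.18 (53 of 65), the tRNA thiolation gene Ctu1 2.69 (17 of 22) and Cxxc1, a gene of a protein that binds unmethylated CGs, 2.65 (14 of 28).

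The lone share differed widely between genes. Among 5313 protein-coding genes with at least 20 serum-2i Tdg sites its median was 65.4% and its quartiles 52.9% and 76.1%. A share of at least 80% was found in 928 genes, or 17.5%, and a share of at most 50% in 1163, or 21.9%. The first count depends on the settings: it was 458 of 3962 genes with a coverage minimum of 10, and 1723 of 5313 when absence was asked of serum Tdg cells alone. Since lone sites are defined by these same rows, the counts describe and do not test. Among 1969 genes with at least 50 sites and by the fixed ranking, Egfem1 stood highest with 57 of 58 sites lone (98.3%). Among those that followed were BC052040 (58 of 60), the GTPase regulator gene Arhgap15 (72 of 75), Cdc123, an assembly factor of translation initiation (56 of 59), and the receptor phosphatase Ptprk (90 of 95). Egfem1 and BC052040 had no site in serum Tdg cells, and the other 3 named had between 3 and 7. Cdc123, at 50.9 kb, was the shortest of those named.

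At the other end stood genes with dense 5caC in serum. Hoxd3 had 3 lone sites of 54 (5.56%, interval 1.16 to 15.4) and 229 sites in serum Tdg cells. Bcl9l, a coactivator of beta-catenin, had 5 of 61 against 162 in serum Tdg cells, Hoxb3 8 of 78 against 284, and the transcription factor gene Nfix 13 of 122 against 346. Map1a, a microtubule protein gene, had 6 of 56 against 83 and Hoxa3 10 of 71 against 233. The 3 Hox genes lie in different clusters of homeobox genes that set position along the body axis.

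The lone share rose with the length of the gene. Its median was 46.6% for spans under 10 kb (60 genes with at least 20 sites), 52.4% for 10 to 30 kb, 63.5% for 30 to 100 kb, 71.1% for 100 to 300 kb and 81.1% for longer spans (431 genes). Per kb of span, lone sites were 0.285 under 10 kb, 0.327 at 10 to 30 kb, 0.314 at 30 to 100 kb, 0.287 at 100 to 300 kb and 0.136 above. Shared sites per kb fell throughout, from 0.312 to 0.264, 0.191, 0.131 and 0.0407. Up to 300 kb the rise in the lone share thus went with fewer shared sites per kb at a nearly level density of lone ones.

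**Figure D5:**
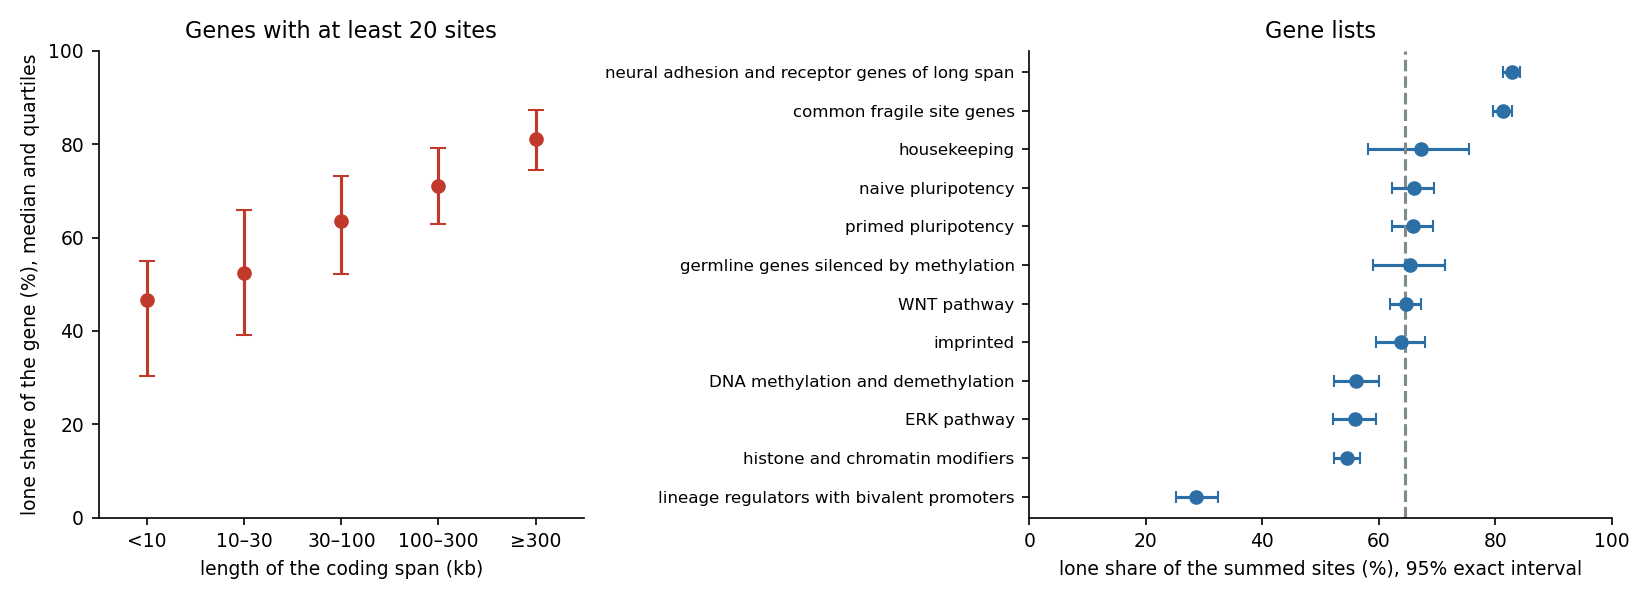
Left, median and quartiles of the lone share of protein-coding genes with at least 20 serum-2i Tdg sites, by length of the span; the medians rise from 46.6% to 81.1%. Right, the lone share over the summed sites of each gene list with exact 95% intervals, the dashed line marking the 64.5% of all sites in protein-coding spans.

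Gene lists were compared with the 64.5% (interval 64.3 to 64.6) that lone sites made up of all serum-2i Tdg sites in autosomal coding spans. Lineage regulators with bivalent promoters, the developmental factors silenced by Polycomb in stem cells, stood lowest: 184 of their 642 serum-2i Tdg sites were lone (28.7%, 25.2 to 32.3). All 9 members with at least 20 sites had a share of at most 50% (background 21.9%), and their median was 28.0% against 65.4% for all such genes. Their spans were between 10 and 100 kb, and by length the background was 46.9% at 10 to 30 kb and 22.2% at 30 to 100 kb. Many other members were shorter than 10 kb. The pooled lone share of all coding genes was 47.7% under 10 kb, 55.3% at 10 to 30 kb and 62.2% at 30 to 100 kb. Pax7, a muscle and neural crest factor, had the most lone sites, 64 of 132, and the highest share. The motor neuron and heart factor Isl1 had none of 11, and Eomes, a mesendoderm and trophoblast factor, 1 of 17. Of the 32 members with any serum-2i Tdg site, 19 had a lone one.

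Long neural adhesion and receptor genes stood highest, with 2416 of 2917 sites lone (82.8%, 81.4 to 84.2). Of 21 members with at least 20 sites, 17 had a share of at least 80% (background 17.5%) and none was at or below 50%, with a median of 88.1%. Nrxn3, a neurexin gene, had all 49 of its sites lone, and Grid1, a glutamate receptor gene, had the lowest share, 66 of 99; Tenm3 had the most lone sites. Common fragile site genes, long genes prone to breakage under replication stress, had 1731 of 2129 (81.3%). Of these 13 genes 9 were at or above 80%, with a median of 84.1%; the background was 17.5% of all genes, and 54.8% of those of at least 300 kb. Lrp1b had 27 of 29, and Auts2 had the lowest share at 76.5%. Both lists were made of long genes and overlap in members such as Lrp1b, and spans of at least 300 kb had a median of 81.1% anyway.

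Naive pluripotency genes stood near the level of all coding spans. They had 452 of 685 sites lone (66.0%, 62.3 to 69.5); of 7 members with at least 20 sites, 1 was at or above 80% and none at or below 50% (background 17.5% and 21.9%). The orphan nuclear receptor gene Esrrb had the most, 145 of 216. Dppa2, a chromatin factor of early embryos, had 16 of 17, while the reprogramming factor gene Klf4 had 3 of 18, against 37 sites in serum Tdg cells. Primed genes had 484 of 735 (65.9%) and a median of 60.6%, with 1 of 5 members at or above 80% and 1 at or below 50%. The forkhead gene Foxp1 alone had 279 of 384, and without it the list had 205 of 351 (58.4%, 53.1 to 63.6). The extremes were the cadherin gene Cdh2 with 37 of 43 and Sall2 with 5 of 17.

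Genes of DNA methylation and demethylation stood below that level, with 370 of 659 sites lone (56.1%) and 5 of 8 members at or below 50%, none at or above 80%, against 21.9% and 17.5% of all such genes. The 3 TET genes, which encode the enzymes that make 5caC, differed: Tet1 had 87 of 115 sites lone, Tet2 36 of 49 and Tet3 18 of 65. Tdg itself had 5 of 8. The share was highest in Uhrf2, a methylation-binding ubiquitin ligase gene, with 16 of 18, and lowest in Smug1, another DNA glycosylase gene, with 1 of 12. Histone and chromatin modifiers had 1057 of 1937 (54.6%), with 2 of 21 members at or above 80% and 8 at or below 50% (background 17.5% and 21.9%). Their median was 63.9%, against 65.4% for all such genes. Gse1 had the most lone sites, 280 of 653, and without it the list had 777 of 1284 (60.5%). In this list the histone demethylase gene Kdm6b had the lowest share, 1 of 25, and the acetyltransferase gene Ep300 the highest, 9 of 10.

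Pathways targeted by the inhibitors were divided. ERK pathway genes, downstream of the kinase MEK, had 412 of 737 sites lone (55.9%, 52.2 to 59.5), with 1 of 12 members at or above 80% and 4 at or below 50% (background 17.5% and 21.9%). Map2k1, which encodes a MEK kinase itself, had 57 of 70, Map2k2 10 of 12, Fgfr1 57 of 115 and the AP-1 gene Fosl1 none of 10. WNT pathway genes, regulated through GSK3, had 832 of 1287 (64.6%), with 2 of 13 members at or above 80% and 3 at or below 50%, close to the 17.5% and 21.9% of all genes. Tcf7l1, a repressor of WNT targets, had the most, 183 of 276. The beta-catenin gene Ctnnb1 had 13 of 15 and Gsk3b, which encodes a form of the inhibited kinase, 77 of 92, whereas Tcf7 had 15 of 42.

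Imprinted genes had 323 of 506 sites lone (63.8%), with sites in overlapping spans counted for each gene. Of 9 members, 1 was at or above 80% and 1 at or below 50%, against 17.5% and 21.9% of all genes. All 11 serum-2i Tdg sites of the retrotransposon-derived gene Peg10 were lone, against 3 of 17 in the growth factor gene Igf2, and the potassium channel gene Kcnq1 had the most, 60 of 98. Germline genes that methylation silences in somatic cells had 159 of 243 (65.4%), with neither of 2 members at or above 80% or at or below 50%. Their extremes were Stk31 with 10 of 12 and Piwil2, a piRNA pathway gene, with 5 of 12, and Tex14 had the most, 43 of 68. Housekeeping genes had 82 of 122 (67.2%, 58.1 to 75.4), 25 of 31 in the lysosomal enzyme gene Gusb and 8 of 13 in the RNA polymerase gene Polr2a. Of its 2 members with at least 20 sites, 1 was at or above 80%.

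In microRNA hairpins, 35 of 1721 autosomal CGs were lone sites (2.03%), in 28 of 919 hairpins. In the promoter windows the share was 0.911% over all CGs, but 2.68% to 4.46% in the classes with 1 to 9 CGs. Hairpin CGs also held 24 shared sites and 69 sites listed in serum Tdg cells. Mir138-2 (chr8:94324311-94324381, plus strand) had the most lone sites. Its hairpin, from RefSeq on GRCm38.p6, is shown with the 3 lone CGs in capitals.
Mir138-2: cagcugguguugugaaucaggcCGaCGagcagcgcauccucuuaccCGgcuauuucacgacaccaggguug
Coverage at these CGs was 10.5, 21.5 and 9. On chromosome 12, 5 hairpins of the imprinted Dlk1-Dio3 domain held 6 lone sites with coverage from 6.5 to 31.5, the highest in Mir1188; this cluster was picked out after its values were seen.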

How the data were processed

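The authors' deposited table gave a coverage signal per CG position and group, with mm10 named in the submitters' processing notes; aligner and site caller: not given in the sources used here. Deposited values moved in steps of 0.5, taken to mean an average over 2 technical replicates. Ids in the table were matched to the sample titles. A lone site had a row for serum-2i Tdg and no row for another group. Sites were counted in RefSeq gene spans (GRCm38.p6, 20665 autosomal protein-coding genes), in 300-base promoter windows and in microRNA hairpins; 18846 of 31396 windows start at a span end. Lone shares of genes needed at least 20 serum-2i Tdg sites. Named genes were the 10 with the most lone sites, the 6 with the highest and lowest shares (at least 50 sites), the 6 with the most per kb (at least 20 sites), list members with the most lone sites and the extreme shares (at least 10 sites), the 6 sites of highest coverage and the 6 windows with the most lone sites. A gene with a predicted symbol was passed over in the rankings by number, share and density. An item that the ranking by share selected is not reported here. The members and the 12 lists (270 symbols) were chosen with earlier results of these data known. Exact binomial (Clopper-Pearson) intervals came from scipy 1.17.1, with pandas 2.3.3 and Python 3.11.15. Counting functions were tested on simulated data. Alternatives changed the coverage minimum, the rule for absence, the distance to span ends, the chromosomes, the treatment of overlapping spans and, added after seeing the data, the largest member of each list.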

Additional observations from a re-analysis of the deposited data

Results flagged for a closer look

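Chromosome X was outside the autosomal set. There, 4466 of 5728 serum-2i Tdg sites were listed in that group alone (78.0%, exact 95% interval 76.9 to 79.0), with a median coverage of 11. It is given here because the comparisons above did not use this chromosome; the number follows from the same rule of listing, and control values are not analysed here.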

How the results depend on the processing

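No paired analysis was possible because the table gives 1 value per group; leaving out replicates was not run for the same reason. With a coverage minimum of 10, the lone share was 60.2%, the median coverage 15, the share within 1 kb of a coding span end 4.03%, the share inside coding spans 55.3% and the share with a neighbour within 1 kb 78.7%. With a minimum of 20 these were 45.6%, 26.5, 3.41%, 54.6% and 63.7%. With no site of another group allowed within 100 bases, the lone share was 50.8%, and the 3 location shares were 3.95%, 54.5% and 77.8%. Counting other groups from a coverage of 6 gave a lone share of 66.9%. Requiring absence from serum Tdg cells alone gave 71.2%, with 55.9% inside coding spans and 81.9% with a neighbour. Without chromosome 11 the values were 66.1%, 4.24%, 55.3% and 81.9%. At 500 and 2000 bases from a span end, 2.22% and 8.47% of lone sites lay there. Genes at or above 80% numbered 928 of 5313 as listed, 458 of 3962 with the minimum of 10 and 1723 of 5313 against serum Tdg alone. Among the 1992 genes with at least 50 sites, predicted symbols included, 321 were at or above 80% and 291 at or below 50%. The last counts are lower partly because fewer genes were counted. The bivalent list stayed lowest and the long neural list highest in each list setting that was run. Leaving the list shares aside, 28 comparisons of these results with an alternative moved beyond the interval, or beyond 1.5 times for counts. The 23 other comparisons stayed within. For the median coverage the interval was a set band from 11.5 to 12.5. The 23 include the rule that no site of another group lies within 1 base. That rule could change nothing, since no such site existed. For the pooled shares of the lists, 21 comparisons moved beyond their intervals and 39 stayed, the rule on 1 base again among the latter. With the minimum of 10, 9 of 12 fell (to between 25.2% and 79.3%), and 9 rose against serum Tdg alone (to between 60.8% and 88.7%). Leaving out each list's member with the most sites, chosen after seeing the data, moved 3, the bivalent list to 23.5% without Pax7, the primed to 58.4% without Foxp1 and the chromatin modifiers to 60.5% without Gse1. The unknown read depth of each library limits every statement on absence.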

Other observations

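In 1296 of the 14993 protein-coding genes with a lone site, such sites were the only listed sites of any group. Autosomal protein-coding genes numbered 20665 in all. Genes with a lone site had a median of 7 of them, and a gene with few sites meets this rule more easily. The genes named here were chosen after the values were seen. Leaving out predicted symbols, Lmbrd2, a membrane protein gene, had the most, with 16 sites and a summed coverage of 190.5. Skint4, a gene of the skin and thymus immunoglobulin-like family, Cd3d, a subunit of the T cell receptor complex, and Iqcj had 14 each. Prdm15, which encodes a zinc-finger regulator of naive pluripotency, had 13 with a summed coverage of 245.5, and Tmem168 had 12. Cd3d is short, at 5.28 kb, and had 2.65 lone sites per kb.

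Promoter windows of named genes with at least 5 lone CGs numbered 11, and 7 of these had no site in serum Tdg cells. Of all 2324 windows with a lone site, 1508 had no site in serum Tdg cells, about the same share. The 11 windows held 7 to 23 CGs. Beside Rpl39l and Elf5 they included Aen, an apoptosis nuclease gene (6 of 20 CGs), Rbms3, an RNA-binding protein gene (6 of 7), the neutrophil protease gene Ctsg (5 of 8), the kallikrein gene Klk15 (5 of 9) and the testis bromodomain gene Brdt (5 of 23, with a further 5 listed in serum Tdg cells). Windows with a lone site had a median of 6 CGs, those with a serum Tdg site 11 and all windows 7.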
